A study of Mus musculus with 13 samples.

Results

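Cardiac fibroblasts carrying the transcription factor Tcf21 were followed in single-cell RNA sequencing of mouse hearts from embryonic stage E12.5, in days after conception, to postnatal day 3 (P3). Barcodes, each standing for 1 captured droplet, were kept at 2000 or more unique molecular identifiers (UMIs, counts of captured RNA molecules) and 500 or more genes. A fibroblast barcode had Tnnt2 below 1000 CPM (UMIs of a gene per 1000000 UMIs), at most 1 UMI of the endothelial genes Pecam1 and Cdh5 together, 10 or more UMIs of Col1a1, Col1a2 and Col3a1 together, at least 1 Tcf21 UMI, and no UMI of Sox9, Upk3b or Upk1b. There were 735 such barcodes among 14212 non-myocyte heart barcodes (Tnnt2 below 1000 CPM), 41586 heart barcodes and 76191 barcodes in the 10 matrices analysed here. The hearts came from wild-type C57Bl/6J mice with no treatment, and the comparison between groups was developmental age: E12.5, E14.5 and E16.5, each with 2 libraries, and P3 with 1 matrix that pooled the barcodes of 2 sample records under 2 barcode suffixes. The number of hearts behind each library is not given in the sources used here, so p-values cover the spread between these libraries. Since Tcf21, the 3 collagens, Tnnt2, Pecam1, Cdh5, Sox9, Upk3b and Upk1b chose the barcodes, their levels are given as description with no test, and P3 entered no test. These selection genes were not taken out of the counts of genes tested, which held 5 of them among 5803 in the comparisons of stages.

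Fibroblasts of the heart arise largely from the epicardium, with a contribution from endocardial cushions and neural crest, and lay down the collagen network that holds the myocytes together. Tcf21 is a basic helix-loop-helix factor needed for epicardial cells to take the fibroblast fate, Pdgfra is a receptor for platelet-derived growth factor that marks resting cardiac fibroblasts, Col1a1 encodes a chain of type I collagen, and Lsp1 encodes an actin-binding protein. Sox9, which barred a barcode here, is a transcription factor of valve mesenchyme and cartilage. Upk3b and Upk1b are uroplakins of the mesothelium, which in the heart is the epicardium. In mm10, Tcf21 lies on chromosome 10 (22817281 to 22820174, minus strand) and Pdgfra on chromosome 5 (75152292 to 75198215, plus strand).

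The fibroblasts numbered 21 and 31 barcodes in the E12.5 libraries, 45 and 51 in those of E14.5, 86 and 75 in those of E16.5, and 426 at P3 (225 under suffix 1 and 201 under suffix 2). Most mesenchymal barcodes with a Tcf21 UMI were lost at the Sox9 step. Of 373 and 468 such barcodes at E12.5, 95 and 124 had no Sox9 UMI. At E14.5 this step left 57 of 186 and 67 of 190, at E16.5 it left 99 of 425 and 84 of 317, and at P3 it left 433 of 1372. Barcodes with both Tcf21 and Sox9 therefore outnumbered the fibroblasts in every matrix, with 211 and 257, 126 and 120, 319 and 231, and 931 in the same order. They were also deeper: their median UMI counts were 18588 and 18702 (E12.5), 14837 and 14846 (E14.5), 16691 and 13650 (E16.5) and 11175 (P3), against 16364 and 14845, 12241 and 10441, 13570 and 11489, and 10297 in the fibroblasts, and the part of depth in the absence of a Sox9 UMI was not tested. The uroplakin step then removed most remaining E12.5 barcodes, leaving 21 of 95 and 31 of 124. It removed fewer at E14.5 (leaving 45 of 57 and 51 of 67) and few at E16.5 (86 of 99 and 75 of 84) or P3 (426 of 433). No fibroblast barcode was shared between any 2 libraries. Over all classes 23 to 100 barcode sequences were, which made up 0.491% to 1.48% of the smaller library. At such shares a shared barcode would be rare among so few fibroblasts, so the lack of one tells little.

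As a share of non-myocyte barcodes, fibroblasts stood higher at each later stage. The 2 libraries per stage gave 0.863% and 0.981% (E12.5), 2.81% and 3.54% (E14.5), and 5.92% and 6.10% (E16.5). The stages did not overlap, with means of 0.922% ± 0.0834, 3.17% ± 0.515 and 6.01% ± 0.130 (SD, n = 2 libraries each). The E16.5 mean lay 5.09 percentage points above that of E12.5, and the two-sided exact permutation p was 0.33, the smallest value that 2 against 2 libraries allow. P3 had 14.7% (95% exact binomial interval 13.5 to 16.1, counting error only), with 17.0% under suffix 1 and 12.8% under suffix 2. When each barcode was thinned to 2000 UMIs before the selection they became 0 and 0.0632% (E12.5), 1.21% and 1.06% (E14.5), 3.95% and 4.59% (E16.5) and 17.6% (P3, with 15.2% under suffix 1 and 19.7% under suffix 2, the reverse of their order before thinning), so the order of the stages held and the E12.5 values fell furthest in proportion. With Sox9 not used in the selection the shares were 9.53% and 9.11% (E12.5), 10.7% and 11.9% (E14.5), 27.9% and 24.9% (E16.5) and 46.9% (P3). The E16.5 mean then exceeded that of E12.5 by 17.1 points, but the rises from E12.5 to E14.5 and to E16.5 were smaller in proportion than with Sox9 used. With the Sox9 step kept but before the uroplakin step, 95 of 2434 and 124 of 3161 non-myocyte barcodes remained at E12.5. At E14.5 these were 57 of 1602 and 67 of 1442, and at E16.5 99 of 1453 and 84 of 1229. As shares, both E12.5 libraries then lay between the 2 E14.5 libraries, with E16.5 above. Before both steps, 373 of 2434 and 468 of 3161 barcodes remained at E12.5, against 186 of 1602 and 190 of 1442 at E14.5. As shares, both E12.5 libraries then lay above both E14.5 libraries. In this order of steps the wider gap appeared at the uroplakin step, but with Sox9 not used that step left the smaller gap given above. The part of each step was not tested. Fewer fibroblasts and fewer Tcf21 or collagen molecules per fibroblast cannot be told apart by a share that needs those UMIs.

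**Figure D1:**
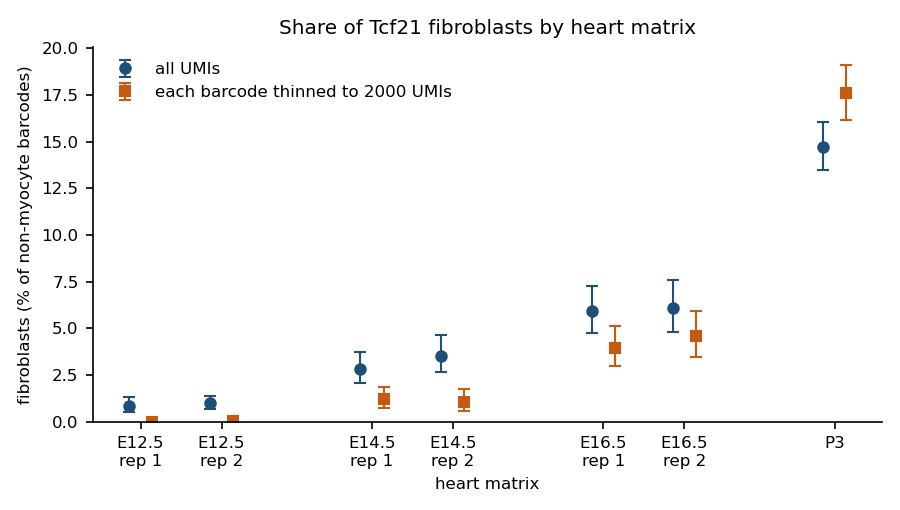
Fibroblasts as a percentage of non-myocyte barcodes (vertical axis) in each of the 7 heart matrices (horizontal axis), with 95% exact binomial intervals as bars; circles use all UMIs and squares use barcodes thinned to 2000 UMIs. The circles run from below 1% in both E12.5 libraries to 14.7% at P3, and the squares lie below the circles in the 6 embryonic libraries but above at P3.

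The 4 fibroblast markers stood as follows. Tcf21, used in the selection, had 149.6 and 129 CPM (E12.5), 129 and 159 CPM (E14.5), 174 and 221 CPM (E16.5) and 442 CPM (P3), so its level in P3 fibroblasts lay above every embryonic library. Among cardiomyocyte barcodes, which should lack it, 0.313% to 2.41% had a Tcf21 UMI, at median depths of 11709 to 20437.5 UMIs. Col1a1, also used in the selection, had 349.9 and 556 CPM (E12.5), 1538 and 1714 CPM (E14.5), 2507 and 2742 CPM (E16.5) and 2695 CPM (P3). Pdgfra, not used, had 88.1 and 97.03 CPM (E12.5), 134 and 104 CPM (E14.5), 83.5 and 90.8 CPM (E16.5) and 126 CPM (P3), with E12.5 and E16.5 overlapping (log2 fold change 0.13 ± 0.20 SE, edgeR adjusted p = 0.713 for E16.5 against E12.5) and both E14.5 libraries above them. Its level in the other 13477 non-myocyte barcodes was 29.6 to 43.0 CPM in all 7 matrices, below every fibroblast value. The mesenchyme most like the fibroblasts carried Pdgfra too. At E12.5 it was detected in 71.4% and 74.2% of fibroblasts and 77.7% and 81.3% of barcodes with both Tcf21 and Sox9. Mesenchymal barcodes with Sox9 but no Tcf21 had 67.6% and 66.5%. The 4 markers summed to 3538 CPM in P3 fibroblasts and 3575 CPM in P3 barcodes with both genes. In each embryonic library the fibroblast sum was the higher. Lsp1 rose and had 104 and 183 CPM (E12.5), 669.7 and 737 CPM (E14.5), 603 and 533 CPM (E16.5) and 274 CPM (P3). Both later embryonic stages lay wholly above E12.5, and the E16.5 value gave log2 fold change 2.18 ± 0.20 SE, edgeR adjusted p = 5.33e-07.

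Endothelial, erythroid, macrophage and epicardial markers were lower in the fibroblasts than in the other non-myocytes, and cardiomyocyte markers had overlapping ranges in both. The 8 endothelial markers summed to 38.4 to 69.4 CPM against 700.3 to 1716 in the other non-myocytes, and the 10 cardiomyocyte markers to 752 to 1821 CPM against 1041 to 1692. The endothelial sum is in part fixed by the selection, which capped Pecam1 and Cdh5 in the fibroblasts, and Tnnt2 of the cardiomyocyte list was capped in both classes. The 9 erythroid genes summed to 2305 and 2116 CPM (E12.5), 1187 and 9426 CPM (E14.5), 8874 and 8252 CPM (E16.5) and 2501 CPM (P3), far below the 15070 to 159580 of the other non-myocytes. They were thus higher at E16.5 than at E12.5, and the E14.5 libraries stood apart. The 8 macrophage markers summed to 4.66 to 12.4 CPM before birth and 121 at P3, against 46.4 to 818 and 1221 in the other non-myocytes. The 7 epicardial markers, of which the selection barred Upk3b and Upk1b, summed to 9.66 to 95.2 CPM against 107 to 161 in the other non-myocytes. The 2 came closest at E14.5, with 95.2 and 95.1 CPM against 107 and 119 CPM. The Schwann and neural crest list summed to 101 and 5.71 CPM in the E12.5 fibroblasts against 4.54 and 5.34 in the other non-myocytes, to 11.7 and 5.49 against 16.8 and 10.2 at E14.5, to 23.1 and 61.7 against 45.2 and 26.3 at E16.5, and to 42.1 against 30.5 at P3, although its transcription factors Sox10 and Foxd3 were at 0 in all 7 matrices. The part of these transcripts in the results was not tested. Valve mesenchyme genes other than Sox9 (Scx, Hapln1, Acan and Col2a1) summed to 166 and 160 CPM at E12.5 but only 8.15 to 21.7 CPM in every later matrix. Smooth muscle genes differed between the E12.5 libraries, at 478 and 2136 CPM, with Acta2 at 96.1 and 1202 CPM, and stood at 524 and 673 CPM at E14.5, 711 and 696 CPM at E16.5 and 1487 at P3. The other non-myocytes had 585 and 550 CPM (E12.5), 424 and 469 CPM (E14.5), 418 and 344 CPM (E16.5) and 1263 CPM (P3). Only in E12.5 replicate 1 were the fibroblasts below them. The 6 pericyte markers reached 985 CPM at P3, from 98.8 to 129 in the E12.5 and E14.5 libraries and 336 and 349 in those of E16.5. In the other non-myocytes these summed to 45.9 and 48.2 CPM (E12.5), 69.3 and 64.2 CPM (E14.5), 281 and 234 CPM (E16.5) and 913 CPM (P3). The pericyte sum was thus higher in the fibroblasts in every matrix.

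Some barcodes meeting the fibroblast rule also carried Rgs5, a regulator of G-protein signalling typical of pericytes, the cells that wrap capillaries. An Rgs5 UMI was present in 7 of 21 and 9 of 31 fibroblasts (E12.5), 2 of 45 and 2 of 51 (E14.5), 17 of 86 and 10 of 75 (E16.5), and 157 of 426 or 36.9% (P3). At P3 the barcodes with Rgs5 had 323 CPM of Higd1b and 273 CPM of Kcnj8, further pericyte genes, and those without had 0.681 and 12.3 CPM. Fibroblast genes ran the other way, as Dcn stood at 1816 CPM with Rgs5 and 4105 CPM without, and Pdgfra at 68.6 and 160.4 CPM. The E16.5 libraries had the same arrangement, with Higd1b at 197 and 382 CPM in barcodes with Rgs5 and 6.18 and 1.37 CPM in those without. At E12.5 the barcodes with Rgs5 had no Higd1b UMI in either library, and 18.8 and 0 CPM of Kcnj8. Their Dcn stood at 94.1 and 74.7 CPM, against 220 and 326 CPM without Rgs5. Since this split was made on a gene measured in the same barcodes, it is a description. Leaving out barcodes with an Rgs5 UMI, an alternative chosen after seeing the data, gave a P3 share of 9.30% and an E16.5 mean 4.38 points above that of E12.5.

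**Figure D2:**
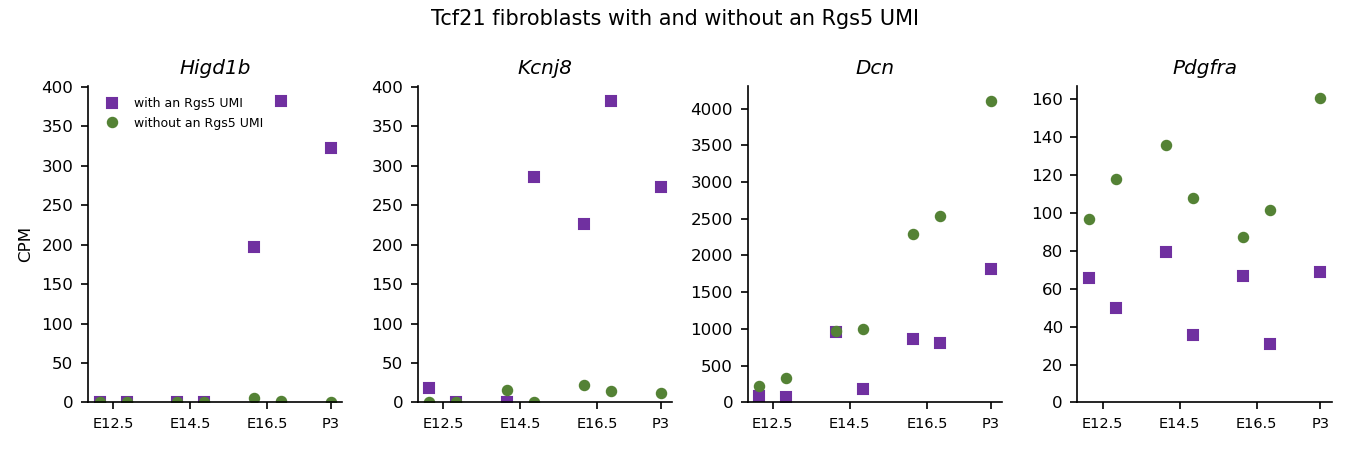
CPM (vertical axis) of Higd1b, Kcnj8, Dcn and Pdgfra by stage (horizontal axis) in fibroblast barcodes with (squares) and without (circles) an Rgs5 UMI, summed per matrix. At E16.5 and P3 the squares lie above the circles for the pericyte genes Higd1b and Kcnj8 and below them for Dcn and Pdgfra; the E14.5 squares rest on 2 barcodes each.

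At the Tcf21 threshold there were 222 fibroblasts with exactly 1 Tcf21 UMI, 513 with more, and 888 barcodes outside that met every condition but had no Tcf21 UMI. At P3 these had 2030.3, 265 and 1865 CPM of Rgs5 and 1913, 3563 and 2698 CPM of Dcn. Fibroblasts with 1 Tcf21 UMI had more Rgs5 than those with 2 or more in all 7 matrices, and less Dcn in each but E16.5 replicate 2 (2442 against 2207 CPM). Barcodes with no Tcf21 UMI had less Dcn than those with 1 in each matrix except P3 and E16.5 replicate 1 (2192 against 1836 CPM). Just inside the collagen minimum were 33 barcodes with 10 to 12 collagen UMIs, and 26 with 7 to 9 lay just outside. At P3, which gave 16 and 15 of these, Rgs5 stood at 4804 and 4429 CPM, whereas the barcodes just inside had 0 and 21.8 CPM at E12.5, 0 in both E14.5 libraries, and 1335 and 702 CPM at E16.5. Single barcodes also varied widely within a library. Dcn was at 0 in 52.4% and 38.7% of E12.5 fibroblasts but in 2.33% and 5.33% at E16.5, where its median was 2009 and 2204 CPM, and Dlk1 at P3 had a median of 14.1 CPM and a highest value of 15309 CPM.

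Against the other non-myocytes, 12 genes had the highest minimum fold over the 7 matrices among genes of at least 50 CPM. Ranking by the minimum fold picks genes higher in fibroblasts in every matrix, as all 12 were. Ptn, the heparin-binding growth factor pleiotrophin, led with a fold between 2.52 and 3.88. Sfrp1, a secreted Wnt antagonist, followed with 2.31 to 3.34, then the integrin subunit Itgb5, the unannotated Gm12840, Pdgfra and Lsp1. Pcolce, which enhances procollagen cleavage, Mfap4, an elastic fibre protein, Ppp1r14a, Gas1, the protease Mmp23 and the proteoglycan Dcn completed the set with minimum folds of 1.89 to 2.03. Ptn itself had 1456 and 1372 CPM (E12.5), 2853 and 2769.9 CPM (E14.5), 3067 and 2243 CPM (E16.5) and 1572 CPM (P3), whereas Sfrp1 ranged from 169 to 289 CPM. These genes describe the selected barcodes and carry no test, since the same barcodes were chosen by collagens and Tcf21. They were ranked against a mixture of cell types and not against the mesenchyme most like the fibroblasts. At E16.5, Dcn was lower in fibroblasts than in mesenchymal barcodes with Sox9 but no Tcf21, as given below.

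From E12.5 to E16.5 most tested collagens and proteoglycans rose in the selected barcodes, whereas growth factor, Wnt and retinoid genes moved in both directions. The selection cut the stages unequally. Its uroplakin step took out the greater part of what reached it in both E12.5 libraries, and a smaller part in each later one. No gene comparison was run without this step, and its part in the changes between stages was not tested. Of 5803 genes tested, 679 were higher at E16.5 (11.7%) and 471 lower (8.12%) at an adjusted p below 0.05 in edgeR's quasi-likelihood test on UMIs summed per library. The median log2 fold change over all genes was 0.0051, so list medians can be read against 0, and list counts for this comparison against 11.7% and 8.12%. A gene can pass the filter on low counts through the stage where it is high alone, so counts and medians over the tested members of a list do not describe the untested ones. E12.5 rested on 374423 and 525633 fibroblast UMIs, E14.5 on 598757 and 546586, E16.5 on 1210171 and 859281, and P3 on 4656131. DESeq2 called 499 genes in this comparison, and 4395 of 11118 tested passed when Sox9 was not used in the selection, which raised the number of barcodes.

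Collagens beyond those of the selection rose almost as a group: of 19 in the list 15 were tested, 13 rose and 1, Col18a1, fell, with a median log2 fold change of 2.54. Their summed level went from 702 and 675 to 3125 and 3056 CPM, and in the other non-myocytes from 725 and 802 to 1962 and 2093 CPM. Col14a1, a collagen that sits on fibril surfaces, had 10.7 and 9.51 CPM (E12.5), 127 and 132 CPM (E14.5), 336 and 269.99 CPM (E16.5) and 362 CPM (P3), with log2 fold change 5.13 ± 0.28 SE, edgeR adjusted p = 7.93e-10. No library of a later stage overlapped an earlier embryonic stage. Col6a2, a chain of the pericellular type VI collagen, had 48.1 and 39.95 CPM (E12.5) against 478 and 468 CPM (E16.5), with log2 fold change 3.67 ± 0.19 SE, edgeR adjusted p = 5.65e-10. The basement membrane chain Col15a1, at 2.67 and 5.71 CPM (E12.5) against 54.5 and 113 CPM (E16.5), rose as well (edgeR adjusted p = 2.44e-05). The 6 pericyte markers moved over the same step, from 107 and 129 to 336 and 349 CPM, with Higd1b at least 15.5-fold and Abcc9 at least 11.01-fold higher, and their part was not tested.

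Of the enzymes that process and crosslink collagen 8 of 17 tested were higher and 1 lower, with a median of 0.70. Lox, the lysyl oxidase that crosslinks collagen and elastin, had 26.7 and 26.6 CPM (E12.5) against 70.2 and 75.6 CPM (E16.5), with log2 fold change 1.67 ± 0.27 SE, edgeR adjusted p = 0.000256. Crtap, part of the prolyl 3-hydroxylation complex, went from 77.5 and 76.1 to 147 and 149 CPM (log2 fold change 1.18 ± 0.19 SE, edgeR adjusted p = 0.000198), and in each gene the stages did not overlap. Adamts2, the procollagen N-proteinase, had 13.4 and 17.1 CPM (E12.5) against 33.9 and 41.9 CPM (E16.5) (edgeR adjusted p = 0.00865), which was 0.0574 without E12.5 replicate 1 and 0.141 by DESeq2.

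Small leucine-rich proteoglycans bind and space collagen fibrils. All 10 tested genes of the proteoglycan and hyaluronan list were called, 8 higher and 2 lower (Gpc3 and Vcan), with a median of 0.82. Decorin, Dcn, had 184 and 249 CPM (E12.5), 972 and 955 CPM (E14.5), 2015 and 2279 CPM (E16.5) and 3259.6 CPM (P3), with log2 fold change 3.52 ± 0.15 SE, edgeR adjusted p = 5.36e-11. Asporin, Aspn, rose from 8.01 and 11.4 to 284 and 244 CPM (log2 fold change 4.94 ± 0.33 SE, edgeR adjusted p = 1.32e-08) and reached 1012 at P3. Osteoglycin, Ogn, was at 26.7 and 43.8 CPM (E12.5) against 299.96 and 205 CPM (E16.5) (edgeR adjusted p = 2.62e-07), and all of these stages stood apart.

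Elastic fibre and matricellular genes were divided, with 12 of 23 tested higher, 4 lower and a median of 0.74. Mfap5, a microfibril protein, had 0 and 3.805 CPM (E12.5), 3.34 and 1.83 CPM (E14.5), 71.1 and 81.5 CPM (E16.5) and 553 CPM (P3), with log2 fold change 5.21 ± 0.53 SE, edgeR adjusted p = 1.88e-06, so it was near absent until E16.5. Thbs2, an anti-angiogenic thrombospondin, had 10.7 and 9.51 CPM (E12.5) against 84.3 and 105 CPM (E16.5), with log2 fold change 3.43 ± 0.35 SE, edgeR adjusted p = 1.94e-06. The elastogenic fibulin Fbln5 fell, from 58.8 and 312 to 10.7 and 24.4 CPM (log2 fold change -3.33 ± 0.54 SE, edgeR adjusted p = 0.000232); both E16.5 libraries lay below both E12.5 libraries. Among proteases and inhibitors 5 of 12 rose and 2 fell: the serine protease Htra3 went from 2.67 and 3.805 to 73.5 and 76.8 CPM (log2 fold change 4.64 ± 0.44 SE, edgeR adjusted p = 1e-06), while the metalloprotease inhibitors moved apart, Timp3 higher (1.35) and Timp1 lower (-1.44), both called.

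Genes typical of postnatal fibroblasts and complement numbered 28 in the files, of which only 12 passed the filter on low counts, and of these 9 rose and none fell. Clec3b and Abca8a passed with no UMI at E12.5, so these counts and their median of 2.38 lean upward. Dermatopontin, Dpt, a collagen-binding matrix protein, had 2.67 and 15.2 CPM (E12.5), 25.1 and 31.1 CPM (E14.5), 513 and 408 CPM (E16.5) and 744 CPM (P3), with log2 fold change 5.74 ± 0.31 SE, edgeR adjusted p = 7.93e-10, and its E16.5 libraries lay far above any earlier value. Clec3b, encoding tetranectin, had no UMI at E12.5 or E14.5 and 57.02 and 36.1 CPM at E16.5, at least 13.96-fold higher against a floor of 3 UMIs over the E12.5 libraries. Abca8a, a lipid transporter, likewise had no UMI at E12.5 and 33.9 and 23.3 CPM at E16.5, at least 8.57-fold higher. Outside the lists Sparcl1, a matricellular relative of Sparc, had 10.7 and 0 CPM (E12.5) against 228 and 207 CPM (E16.5), with log2 fold change 5.78 ± 0.41 SE, edgeR adjusted p = 2.2e-08.

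**Figure D3:**
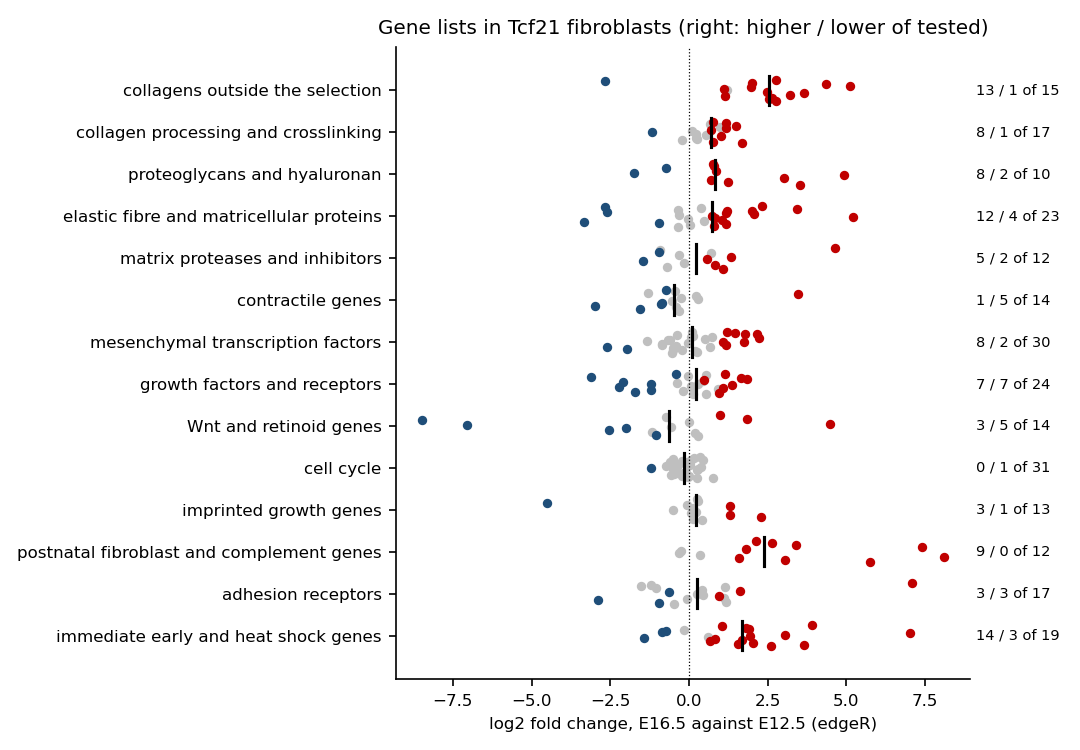
Log2 fold change of E16.5 against E12.5 in fibroblasts (horizontal axis, edgeR) for each tested gene of the 14 lists (rows), with genes higher at E16.5 in red, lower in blue and not called in grey, and the list median as a black bar. The collagen and postnatal lists lie mostly right of 0, with medians of 2.54 and 2.38, and the cell cycle list around 0 with 1 called gene of 31.

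**Figure D4:**
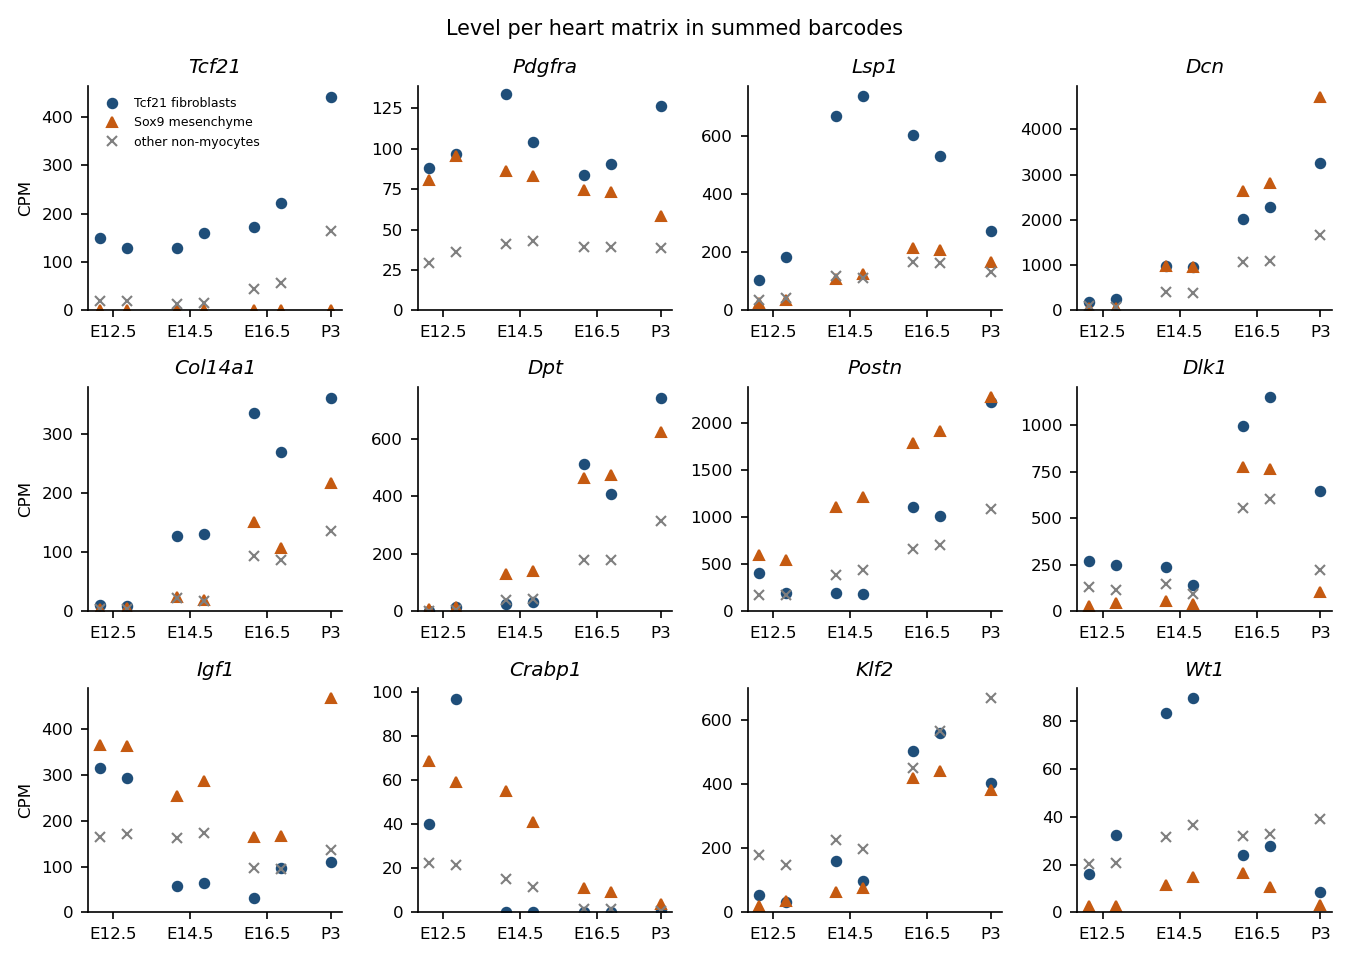
CPM per heart matrix (vertical axis, from 0) by stage (horizontal axis) for 12 genes in fibroblasts (circles), Sox9 mesenchyme (triangles) and other non-myocytes (crosses), each point being the summed barcodes of 1 matrix. Col14a1 and Lsp1 are highest in the fibroblasts in each E14.5, E16.5 and P3 matrix, and within the fibroblasts Dpt and Dlk1 step up between E14.5 and E16.5, Igf1 and Crabp1 are highest at E12.5, and Wt1 is highest at E14.5.

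In the Wnt and retinoid list 14 of 25 genes passed the filter, and of these 5 fell, 3 rose and the median was -0.63. Crabp1 and Lef1 passed with no UMI at E16.5, so the counts and the median lean downward. Crabp1, a retinoic acid binding protein, had 40.1 and 97.03 CPM at E12.5 and no UMI at E14.5 or E16.5, at least 47.3-fold lower at E16.5, a fall that DESeq2 did not call (adjusted p of 0.374). Lef1, a transcription factor of canonical Wnt signalling, had 21.4 and 30.4 CPM at E12.5 and none at E16.5, at least 17.9-fold lower. In the opposite direction, Aldh1a2, the enzyme that makes retinoic acid in the epicardium and its derivatives, went from 0 and 3.805 to 42.1 and 51.2 CPM (log2 fold change 4.49 ± 0.61 SE, edgeR adjusted p = 4.09e-05). The part of the uroplakin step, which bars epicardial barcodes, in this rise was not tested.

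Growth factors and receptors were split evenly, with 7 of 24 higher and 7 lower. Igf1, insulin-like growth factor 1, had 315 and 293 CPM (E12.5), 58.5 and 64.03 CPM (E14.5), 30.6 and 97.8 CPM (E16.5) and 109.7 CPM (P3), with log2 fold change -2.09 ± 0.30 SE, edgeR adjusted p = 6.71e-05, and Ltbp1, which tethers latent TGF-beta in the matrix, fell from 118 and 97.03 to 17.4 and 22.1 CPM (log2 fold change -2.21 ± 0.26 SE, edgeR adjusted p = 9.98e-06). The chemokine Cxcl12 dropped from 120.2 and 331 to 19.8 and 26.8 CPM (log2 fold change -3.13 ± 0.37 SE, edgeR adjusted p = 9.36e-06). That fall was -1.27 with an adjusted p of 0.0615 without the barcodes carrying Rgs5. Of 30 mesenchymal transcription factors tested, 8 rose and 2 fell: Prrx2, a homeobox gene of early mesenchyme, went from 139 and 135 to 14.9 and 24.4 CPM (log2 fold change -2.60 ± 0.26 SE, edgeR adjusted p = 1.68e-06), and Hic1, a repressor found in quiescent mesenchymal progenitors, from 13.4 and 19.02 to 60.3 and 75.6 (log2 fold change 2.23 ± 0.32 SE, edgeR adjusted p = 7.79e-05). Klf4, a zinc finger factor, rose too (log2 fold change 2.18).

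Contractile genes had 5 of 14 tested lower, 1 higher and a median of -0.48, while the smooth muscle markers stood at 478 and 2136 CPM at E12.5, on either side of the 711 and 696 CPM at E16.5, and their part was not tested. Cnn2, calponin 2, went from 337 and 405 to 172 and 169 CPM (log2 fold change -0.90 ± 0.16 SE, edgeR adjusted p = 0.00051). Csrp2 and Myl9 were highest in E12.5 replicate 2, and without it Csrp2 (-0.72) became -0.35 with an adjusted p of 0.181, and Myl9 (-0.84) turned to 0.0603 with an adjusted p of 0.908. Among 17 adhesion receptors tested 3 rose and 3 fell (17.6% each, against 11.7% and 8.12% of all genes tested). They included the integrin subunit Itga4, which went from 42.7 and 43.8 to 4.13 and 5.82 CPM (log2 fold change -2.88 ± 0.48 SE, edgeR adjusted p = 0.000333), and its ligand Vcam1, which rose (log2 fold change 1.61). Plxdc2, a plexin-domain receptor with no UMI at E12.5, was at 19.01 and 29.1 CPM at E16.5, at least 7.22-fold higher.

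Imprinted growth genes numbered 3 higher and 1 lower of 13 tested. Dlk1, a Notch-pathway ligand expressed in fetal mesenchyme, had 269.7 and 251 CPM (E12.5), 240.5 and 141 CPM (E14.5), 998 and 1151 CPM (E16.5) and 649.7 CPM (P3), with log2 fold change 2.28 ± 0.18 SE, edgeR adjusted p = 7.5e-08, and the non-coding Meg3 of the same imprinted cluster rose from 785 and 713 to 1501 and 1669 CPM (log2 fold change 1.32 ± 0.11 SE, edgeR adjusted p = 2.31e-07). Nnat, neuronatin, fell from 184 and 215 to 4.13 and 11.6 CPM (log2 fold change -4.52 ± 0.33 SE, edgeR adjusted p = 4.42e-08). Over all genes the deepest falls of well-expressed genes also included Car3, carbonic anhydrase 3, the membrane-bound protease inhibitor Spint2, the surface protein Cd24a and Bex2. Spint2 had 104 and 129 CPM (E12.5) against 1.65 and 4.66 CPM (E16.5), with log2 fold change -5.03 ± 0.41 SE, edgeR adjusted p = 1.33e-07 and Cd24a 203 and 209 CPM (E12.5) against 9.92 and 9.31 CPM (E16.5), with log2 fold change -4.16 ± 0.28 SE, edgeR adjusted p = 1.05e-08, while Car3 (log2 fold change -6.84) was not called by DESeq2, with an adjusted p of 0.0762.

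Immediate early and heat shock genes, which respond within minutes to stimuli including tissue dissociation, rose widely, with 14 of 19 tested higher, 3 lower and a median of 1.69. Klf2, a flow- and serum-responsive factor, had 53.4 and 32.3 CPM (E12.5), 160.3 and 96.97 CPM (E14.5), 503 and 557 CPM (E16.5) and 404 CPM (P3), with log2 fold change 3.91 ± 0.23 SE, edgeR adjusted p = 3.94e-09, and Fosb 13.4 and 19.02 CPM (E12.5) against 185 and 173 CPM (E16.5), with log2 fold change 3.65 ± 0.28 SE, edgeR adjusted p = 7.04e-08. Their summed level was also higher at E16.5 in the other non-myocytes, going from 2248 and 2122 CPM (E12.5) to 4828 and 5360.3 CPM (E16.5), beside 2791 and 2738 to 5334 and 5708 CPM in the fibroblasts. Of 31 cell cycle genes tested none rose and 1, the kinase Plk1, fell, and its call was lost without any 1 library of E12.5 or E16.5 (edgeR adjusted p of 0.0655 to 0.185) and by DESeq2 (0.311). By step, 4 of the 31 were lower at E14.5 than at E12.5 (12.9%, against 4.2% of all genes tested). From E14.5 to E16.5, 3 (Cdk1, Pcna and Tk1) were higher (9.68%, against 4.12% of all genes tested). After thinning to 2000 UMIs, 28.6% and 48.4% of E12.5 fibroblasts had 4 or more cell cycle UMIs, against 28.9% and 19.6% (E14.5), 27.9% and 25.3% (E16.5) and 15.02% after birth. Sox9 mesenchyme had 42.6% and 36.7% (E12.5) and 22.5% and 23.9% (E16.5).

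From E12.5 to E14.5, 362 genes rose (6.24%) and 244 fell (4.2%), and from E14.5 to E16.5, 239 rose (4.12%) and 107 fell (1.84%), in comparisons that share the E14.5 libraries with each other and the outer stages with the comparison above. The earlier count of 606 became 385, 397, 396 and 227 without E12.5 replicate 1, E12.5 replicate 2, E14.5 replicate 1 and E14.5 replicate 2, and the later count of 346 became 165 and 180 without the respective E14.5 libraries. By DESeq2 the counts were 200 and 107, with 83.2% rather than 69.1% of the later calls higher. Collagens were called at both steps, 9 higher and 1 lower and then 8 higher of 15, while the postnatal list had 1 higher and 1 lower of 12 at the first step and 8 higher at the second.

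Genes that moved early included Gm12840, with 69.4 and 66.6 CPM (E12.5) against 573 and 918 CPM (E14.5), with log2 fold change 3.62 ± 0.25 SE, edgeR adjusted p = 8.1e-08, the glutathione transferase Gstm2 (log2 fold change 2.82) and the axon guidance ligand Slit2, with 18.7 and 24.7 CPM (E12.5) against 137 and 112 CPM (E14.5), with log2 fold change 2.63 ± 0.28 SE, edgeR adjusted p = 9.1e-06. Outside the marker lists of other cell types and among genes of at least 100 CPM at the higher stage, early falls were led by Cxcl12 (log2 fold change -4.57) and Cthrc1, a secreted collagen-repeat protein, which went from 459 and 228 to 31.7 and 49.4 CPM (log2 fold change -2.89 ± 0.40 SE, edgeR adjusted p = 0.000167). Fbln5 fell as well (-2.66), but its log2 fold change was -0.895 without E12.5 replicate 2 and -2.39 without E14.5 replicate 1. It was not called by DESeq2 (adjusted p of 0.140), nor by edgeR without the barcodes carrying Rgs5 (-1.32, adjusted p of 0.061). The 5 largest late gains chosen in the same way were those of Dpt, Sparcl1, the actin-severing Gsn, Dlk1 and the matricellular Postn, periostin. Postn had 411 and 194 CPM (E12.5), 200.4 and 188 CPM (E14.5), 1111 and 1012 CPM (E16.5) and 2215 CPM (P3), not called between E12.5 and E14.5 (-0.44, edgeR adjusted p = 0.256) and far higher at E16.5 than at E14.5 (log2 fold change 2.52 ± 0.22 SE, edgeR adjusted p = 1.57e-06). Gsn went from 26.7 and 43.9 to 221 and 215 CPM at this step (log2 fold change 2.71 ± 0.22 SE, edgeR adjusted p = 1.27e-06) and to 791 at P3.

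Some genes peaked at E14.5. Pid1, an insulin-signalling adaptor, had 10.7 and 43.8 CPM (E12.5), 154 and 207 CPM (E14.5), 44.6 and 52.4 CPM (E16.5) and 68.1 CPM (P3), rising by 2.74 and falling by 1.82 on the log2 scale, each called. Lbh, a transcriptional regulator of limb bud and heart, had 80.1 and 97.03 CPM (E12.5), 274 and 340.3 CPM (E14.5), 119 and 109 CPM (E16.5) and 124 CPM (P3) and was called in both steps. Wt1, an epicardial factor set apart with the epicardial markers, followed the same course with 16.02 and 32.3 CPM (E12.5), 83.5 and 89.6 CPM (E14.5), 23.96 and 27.9 CPM (E16.5) and 8.38 CPM (P3) (log2 fold change 1.91 ± 0.32 SE, edgeR adjusted p = 0.000897, then log2 fold change -1.67 ± 0.27 SE, edgeR adjusted p = 0.0007). The uroplakin step bars epicardial barcodes and cut the E12.5 libraries hardest, and its part in the course of Wt1 was not tested. Meis2, a homeobox factor, declined late, from 247 and 313 to 80.98 and 100.1 CPM (log2 fold change -1.56 ± 0.18 SE, edgeR adjusted p = 2.61e-05), as did Gyg, the glycogenin that primes glycogen (-1.01), while Erdr1 rose and then fell (1.51 and -1.35).

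Whether these changes differed from those of other mesenchyme was tested against Sox9 mesenchyme, 2019 barcodes that met the same conditions with at least 1 Sox9 UMI and no Tcf21 UMI. No change was compared with that of the barcodes carrying both Tcf21 and Sox9. Of 9329 genes tested for a difference in the E12.5 to E16.5 change, 11 were higher in fibroblasts (0.118%) and 57 lower (0.611%). With the library as a replicate block, which pairs the 2 classes of each library, the calls numbered 110, of which 25 were higher and 85 lower. The count of 68 fell to 30 without E12.5 replicate 1, to 17 without E16.5 replicate 1 and to 45 without E16.5 replicate 2.

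Dcn was higher at E16.5 in both classes, with a smaller change in fibroblasts: Sox9 mesenchyme went from 62.4 and 62.6 CPM at E12.5 to 2647 and 2805 at E16.5 (difference -2.05 ± 0.17 SE on the log2 scale, edgeR adjusted p = 7.86e-08). Fibroblasts thus held more Dcn at E12.5 and less at E16.5 than Sox9 mesenchyme in every library. Dlk1 also had the smaller change in fibroblasts, with Sox9 mesenchyme going from 28.9 and 46.8 to 776 and 765 CPM (difference -2.17 ± 0.27 SE on the log2 scale, edgeR adjusted p = 5.18e-05). Dcn and Dlk1 fell outside the rule for named genes here and were chosen after their values were seen. Of the collagens outside the selection, 17 were tested for this difference, of which none changed more upward in fibroblasts and 1 changed more downward. The counts were 0 and 2 of 14 proteoglycans and 0 and 1 of 18 genes of the postnatal list. Over all 9329 genes tested, 0.118% changed more upward and 0.611% more downward. At that share lists of this size would seldom hold an upward call, so the lack of one does not set these lists apart. In the elastic and matricellular list 1 of 24 tested genes, Fn1, changed more upward in fibroblasts and 6 more downward, among them Fbln5, which stayed at 221 and 196 and 182 and 194 CPM in Sox9 mesenchyme (difference -3.34 ± 0.52 SE on the log2 scale, edgeR adjusted p = 0.00162).

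The chains of type IX collagen, typical of cartilage, differed in change between the classes. The classes were themselves split on Sox9, a factor of valve mesenchyme and cartilage, and the part of that split was not tested. Col9a1 went in fibroblasts from 74.8 and 105 to 0.826 and 6.98 CPM and in Sox9 mesenchyme from 132 and 129 to 62.6 and 76.5 (difference -3.71 ± 0.47 SE on the log2 scale, edgeR adjusted p = 7.88e-05), and Col9a3 had a difference of -4.12. Car3 nearly vanished from fibroblasts and stayed in Sox9 mesenchyme at 190.2 and 131 CPM at E16.5, and the homeobox gene Msx1 went from 77.5 and 30.4 to 0 and 10.47 CPM against 69.3 and 64.5 and 65.1 and 79.99. The valve genes Scx and Hapln1 were present in E12.5 fibroblasts, as given above, and moved with these results, and their part was not tested. Greater rises in fibroblasts were smaller in size: Aldh2, a mitochondrial aldehyde dehydrogenase, had a difference 1.34 ± 0.25 SE on the log2 scale, edgeR adjusted p = 0.00545, and Ppp1r14a, an inhibitor of myosin phosphatase, a difference 1.17 ± 0.19 SE on the log2 scale, edgeR adjusted p = 0.00235. Aldh2 lost its call without E12.5 replicate 1 (adjusted p of 0.124), Ppp1r14a without E12.5 replicate 2 (0.106), Car3 without E16.5 replicate 1 (0.155), Msx1 without E12.5 replicate 1 or E16.5 replicate 1 (0.202 and 0.153), and Lox, Errfi1 and Gm12840 without either library of E16.5 or without E12.5 replicate 1 (0.248, 0.452 and 0.206), while Col9a1 and Col9a3 kept theirs without each library in turn. Lox and Gm12840 also lost theirs without E12.5 replicate 2 (0.319 each), Lox without either E14.5 library (0.0558 and 0.0568), and DESeq2 did not call Errfi1, Lox, Car3 or Msx1 (0.0631, 0.075, 0.0911 and 0.314).

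**Figure D5:**
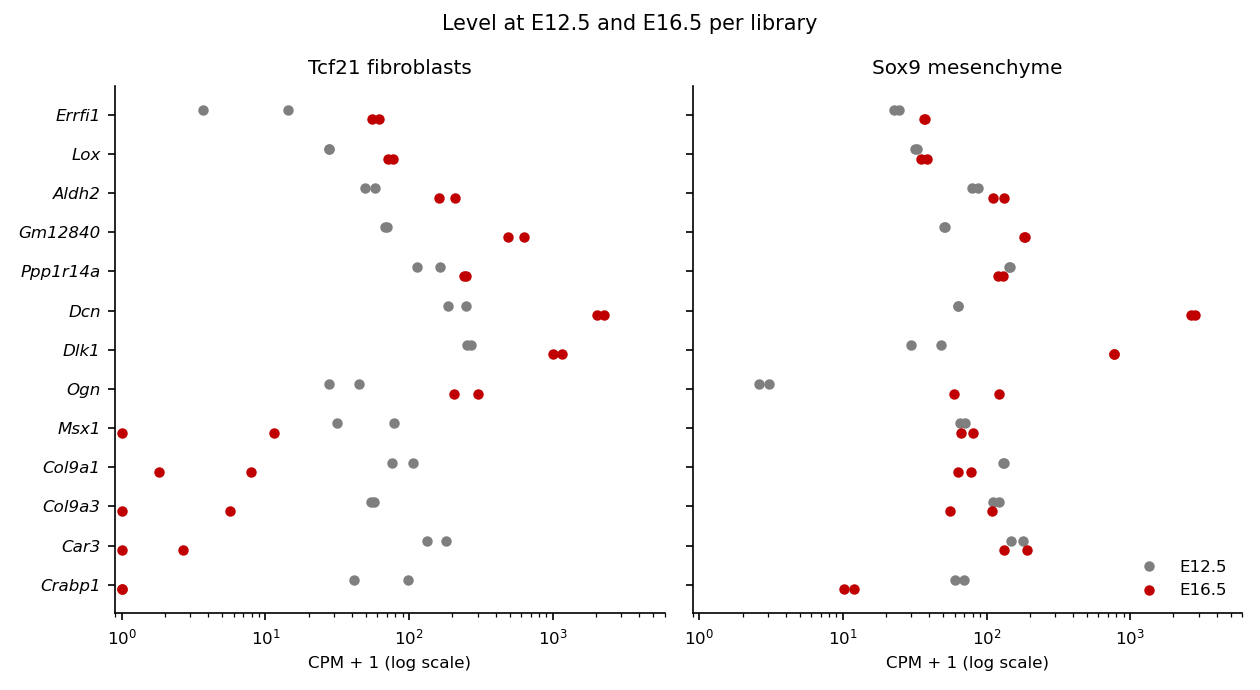
CPM plus 1 on a log scale (horizontal axis) in each E12.5 library (grey) and E16.5 library (red) for 13 genes (rows) in fibroblasts (left) and Sox9 mesenchyme (right). Crabp1, Car3, Col9a3, Col9a1 and Msx1 drop toward 0 on the left but less or not at all on the right, and Dcn rises further on the right.

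Set against all other non-myocytes, a mixture whose make-up itself changes with stage, 47 of 13304 genes changed more upward in fibroblasts (0.353%) and 26 more downward (0.195%). With the replicate block the calls numbered 315 (203 and 112), by DESeq2 210, and without barcodes carrying Rgs5 117. The count of 73 fell to 45 and 26 without E12.5 replicates 1 and 2 and to 34 and 42 without E16.5 replicates 1 and 2. Klf2 was higher at E16.5 in both, but the others began at 178 and 146 CPM and reached 448 and 566 (difference 2.44 ± 0.30 SE on the log2 scale, edgeR adjusted p = 0.000541). Tspan13, a tetraspanin, went in fibroblasts from 93.5 and 57.1 to 3.31 and 3.49 CPM and stood at 65.3 and 55.1 and 92.9 and 98.2 in the others (difference -4.69 ± 0.41 SE on the log2 scale, edgeR adjusted p = 1.14e-05). Spint2 and Cd24a were lower at E16.5 in both, with the larger change in fibroblasts (-3.45 and -2.59), and these genes and Blvrb, a biliverdin reductase abundant in red cells whose level in the others went from 205 and 198 to 109.96 and 103 CPM (difference 1.74 ± 0.23 SE on the log2 scale, edgeR adjusted p = 0.000675), kept their calls without each library in turn. Without the barcodes carrying Rgs5 the difference for Cd24a was -1.67 and no longer called (edgeR adjusted p of 0.0597). With barcodes thinned to 2000 UMIs Tspan13, Spint2, Cd24a and Blvrb all lost their calls (edgeR adjusted p of 0.129, 0.0849, 0.254 and 0.679). Erythroid genes of the other non-myocytes moved over the same stages, from 159580 and 158927 CPM to 62314 and 40896, and their part was not tested.

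Between E16.5 and P3, with 1 matrix after birth and therefore no test, 1452 genes of at least 100 CPM in the higher stage were compared. At least a 4-fold change with P3 outside the range of the E16.5 libraries was seen for 35 genes upward (2.41%) and 1 downward (0.0689%), the globin Hba-a2. The elastic and matricellular list held 6 of the upward genes among 20 compared: Ctgf, Cthrc1, Eln, Fbln5, Mfap5 and Mgp. Elastin, Eln, had 1998 CPM at P3 (95% exact Poisson interval 1957 to 2039) against 145 and 189 at E16.5, 11.96-fold higher. Such intervals cover counting error only, and the suffixes of the P3 matrix, at 1151 and 3082 CPM of Eln, both lay outside it. Ctgf, connective tissue growth factor, rose 32.8-fold, with 111 CPM at P3 (95% exact Poisson interval 102 to 121) against 3.31 and 3.49 at E16.5. Mfap5 rose 7.25-fold and Fbln5, which had fallen before birth, 7.96-fold. Smooth muscle markers moved with these genes, from 711 and 696 CPM at E16.5 to 1487 at P3, and their part was not tested.

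Outside the lists, Txnip, an inhibitor of thioredoxin, had 252 CPM at P3 (95% exact Poisson interval 238 to 267) against 13.2 and 16.3 at E16.5, and Ifi27l2a, an interferon-inducible gene, 358 CPM at P3 (95% exact Poisson interval 341 to 375) against 23.96 and 27.9 at E16.5. The apolipoprotein Apoe (7.44-fold), lipoprotein lipase Lpl (5.97-fold) and metallothionein Mt1 (5.304-fold) were the 3 past the fold among 10 compared in the postnatal list. Macrophage markers went from 12.4 and 4.66 to 121 CPM and pericyte markers from 336 and 349 to 985 CPM over this step, and their part was not tested. No collagen of 9 compared and no proteoglycan of 10 passed the fold, although their medians were 0.51 and 1.18 on the log2 scale against 0.22 over all genes. Rgs5 itself rose 5.63-fold, and the myocyte genes Nppa, Mb and Fabp3 by 5.31, 5.26 and 4.42-fold. Gm10073, Gm10076, Gm8730 and Rpl27-ps3, with folds of 10.1 to 13.4, are processed copies of ribosomal protein genes whose reads can be split with their parents, and are uncertain. Levels differed between the P3 suffixes, with Txnip at 381 and 87.7 CPM under suffixes 1 and 2, Ifi27l2a at 511 and 162 and Hba-a2 at 112 and 845; each suffix alone gave 44 and 40 genes past the fold against 36, and 40 passed without the barcodes carrying Rgs5.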

How the data were processed

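Single cells of mouse hearts from 4 stages (E12.5 to P3), and of embryos without head and limbs from earlier stages, were captured by 10x Genomics 3' chemistry. The authors deposited raw UMI counts per gene and barcode for 27998 genes, aligned to mm10. The submitters' processing notes name Cell Ranger 2.1.1 and Seurat 3.1.1, while matrix headers give Cell Ranger 3.1.0 (P3, 3.0.0). The labels give trypsin and v2 chemistry, the methods collagenase II and v3. Embryonic matrices list 737280 barcodes each, with empty droplets, whereas P3 lists 10964, already filtered. The E16.5 replicate 1 matrix is linked to 2 sample records and was counted as 1 library. One E8.5 matrix was not analysed here. Counts were not corrected for free RNA, and no doublet caller was run; barcodes above 2 times the median UMIs were left out as an alternative. In total 67141166 to 158627277 UMIs per heart matrix were read.

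UMIs of the fibroblasts were summed per library and tested with edgeR 4.0.16 (R 4.3.3; TMM, filterByExpr, quasi-likelihood test, Benjamini-Hochberg over all genes, threshold 0.05); the SE is the log2 fold change divided by the root of F. DESeq2 1.42.0 was an alternative, and shares were tested with SciPy 1.17.1 under Python 3.11.15. Fibroblasts and the other class of a library come from the same animals, so the tests of differences in change were also fitted with the library as a block. Scripts were tested on simulated counts. Gene positions are from GENCODE annotation of mm10. CPM are relative to all UMIs of the summed barcodes. Members, the 14 gene lists and the tests were chosen with earlier results of these data known. Named genes were, per list, up to 3 called genes with the largest log2 fold change among those of at least 20 CPM in the higher stage, the 5 highest and 5 lowest over all genes of at least 100 CPM (50 for differences between classes), up to 8 per direction for P3, and 12 against other non-myocytes, leaving out selection genes and other cell types' markers; further members of lists, markers and genes named with P3 were chosen after their values were seen. Of 80 alternatives, 61 were planned and 19 added after seeing the data.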

Additional observations from a re-analysis of the deposited data

Results flagged for a closer look

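A difference between classes in the E12.5 to E16.5 change, tested as an interaction in edgeR, drew attention to the following genes; values are log2 differences, fibroblasts minus the other class. Against Sox9 mesenchyme, greater gains were seen for Errfi1 (2.11), Lox (1.35), Aldh2 (1.34), Gm12840 (1.27) and Ppp1r14a (1.17). Errfi1, a feedback inhibitor of EGF receptor signalling, had 2.67 and 13.3 CPM (E12.5) against 53.7 and 60.5 CPM (E16.5) in fibroblasts and 23.6 and 21.8 CPM (E12.5) against 35.5 and 36.5 CPM (E16.5) in Sox9 mesenchyme, so the fibroblasts began lower and ended higher. Greater losses were seen for Crabp1 (-8.07), Car3 (-7.14), Col9a3 (-4.12), Col9a1 (-3.71) and Msx1 (-3.51); the fitted value of Crabp1, with no UMI at E16.5 in fibroblasts, depends on the prior count of the fit and is no bound. Crabp1 was lower at E16.5 in Sox9 mesenchyme as well, going from 68.7 and 59.1 to 11.01 and 9.12 CPM, and its difference was not called without E12.5 replicate 2 (adjusted p of 0.141) or either E16.5 library (0.483 and 0.226).

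Against the other non-myocytes, gains were greater for Mfap5 (3.47), Klf2 (2.44), Creg1 (1.88), Blvrb (1.74) and Nr4a1 (1.69), and losses for Car3 (-5.66), Tspan13 (-4.69), Spint2 (-3.45), Cda (-3.17) and Cd24a (-2.59). Nr4a1, an immediate early nuclear receptor, had 18.7 and 22.8 CPM (E12.5) against 138 and 168 CPM (E16.5) in fibroblasts and 36.3 and 40.6 CPM (E12.5) against 117 and 107 CPM (E16.5) in the others. Creg1, a secreted lysosomal glycoprotein, went in fibroblasts from 56.1 and 36.1 to 76.02 and 83.8 CPM while the others went from 99.6 and 92.6 to 67.3 and 54.1. Cda, cytidine deaminase, went from 42.7 and 64.7 to 2.48 and 5.82 CPM in fibroblasts. Calls were lost without at least 1 library for Mfap5 (adjusted p up to 0.167), Creg1 (0.136), Nr4a1 (up to 0.221), Car3 (up to 0.237) and Cda (up to 0.177).

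In data outside the heart comparisons, 7 of 14500 non-myocyte barcodes of E10.5 embryo replicate 1 met the fibroblast rule (0.0483%, 95% exact binomial interval 0.0194 to 0.0994). The count is above the 3 that a count of 0 allows, but the interval includes the share to which 3 counts correspond (0.0207%). E10.5 replicate 2 had 2 of 14112 (0.0142%), and the E8.5 matrix 0 of 5502, which allows up to 0.0545% by 3 counts and 0.0670% by the exact interval.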

How the results depend on the processing

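Of 85 named gene and comparison pairs, 46 kept direction and call in every alternative that gave a value; of the alternatives listed first 1136 values were unchanged in this sense, 103 lost their call and 1 reversed (Myl9, E16.5 against E12.5, which ran from -1.34 to 0.0603 without each library in turn, the latter without E12.5 replicate 2), and of those added after seeing the data 244 were unchanged and 10 lost their call. Thinning each barcode to 2000 UMIs cost most calls (31), followed by DESeq2 (13) and leaving out E12.5 replicate 2 (12). Thinning left fewer UMIs and fewer genes tested, and the part of either in the lost calls was not tested. Counts of called genes, in the order E16.5 against E12.5, E14.5 against E12.5, E16.5 against E14.5, difference from Sox9 mesenchyme and difference from other non-myocytes, were 1150, 606, 346, 68 and 73. They became 584, 252, 139, 45 and 42 with Tcf21 at 2 or more UMIs, 232, 93, 37, 4 and 40 after thinning, and 4395, 2253, 1812, 265 and 1618 with Sox9 not used. The number of genes tested moved as well, so these counts are not shares of 1 set. The stage comparisons tested 5803 genes, then 3583, 1458 and 11118 in the same order of settings. The difference from Sox9 mesenchyme tested 9329, then 8857, 4050 and 11637, and that from other non-myocytes 13304, then 13016, 9908 and 13127. DESeq2 gave 499, 200 and 107 for the stages and 210 for the difference from other non-myocytes, no filter gave 140 and 324 for the differences, and leaving out barcodes above 2 times the median UMIs or with Rgs5 gave 34 and 117 for the last. Leaving out 1 library in turn gave 811 to 1180, 227 to 728, 165 to 431, 17 to 59 and 26 to 98 genes. Thinning raised the share of higher genes among calls from 59.0% to 70.7%, from 59.7% to 78.5% and from 69.1% to 83.8% for the stages, and moved the median of all genes in the difference from other non-myocytes to 0.34. At 8-fold, 11 genes changed between E16.5 and P3.

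Library numbers did not pair the stages (correlations of same-numbered deviations 0.0125, -0.00538 and 0.0288), and the replicate block gave 1193, 656 and 403 stage calls. With the library as replicate block the differences had 110 and 315 calls. The rise in share from E12.5 to E16.5, 5.09 points, was 3.32 with Tcf21 at 2 or more UMIs, 5.52 from 5000 UMIs, 4.24 after thinning, 9.75 of collagen-positive barcodes, 17.1 with Sox9 not used, 5.35 with collagens at 5 or more UMIs, 4.38 without Rgs5, and 5.00 to 5.18 without each library in turn. The causes of these shifts were not tested. With Sox9 not used the E12.5 shares were 9.53% and 9.11%, so that larger rise in points was smaller in proportion. The 52 fibroblasts of E12.5 limit every comparison with that stage.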
